A study of Homo sapiens with 16 samples.

Results

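The BH3-only genes encode small proteins that start the mitochondrial route of apoptosis. Their BH3 segment, a short helix, docks into a groove on the guardians (BCL2, BCL-XL, MCL1 and relatives), which then can no longer hold back the effectors BAX and BAK1, and some BH3-only proteins also bind the effectors directly. In melanoma with mutant BRAF the ERK pathway is known to restrain BIM, the product of BCL2L11, by phosphorylation and degradation, and to restrain BMF, and FOXO factors can transcribe BCL2L11 once their inhibition by AKT is lifted.

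The 8 members described here are the rows of the deposited table with the symbols BCL2L11, BMF, BBC3, PMAIP1, BID, BAD, BIK and HRK, out of 23260 symbols in all. They were measured in 16 tumors of A375, a human melanoma line with mutant BRAF, grown on both flanks of NOD/Scid/IL2γR-/- (NOG) mice, which lack lymphoid cells and keep myeloid and stromal cells. Of the 4 groups, control was given vehicle, J was given JQ1, an inhibitor of BET bromodomain proteins (50 mg/kg once a day), V was given Vemurafenib, an inhibitor of mutant BRAF (25 mg/kg in each dose), and J+V was given both. All injections were intraperitoneal, and tumors were removed on day 5. Each group held 4 tumors from 2 mice. No age or sex of the mice is stated in the labels or methods. A tumor is named by its mouse number and its flank (2L, 2R, 5L and 5R in control, 26L to 29R in J, 16L to 19R in V, and 33L to 34R in J+V). All tumors come from the same cell line, so the results describe that line, and the 2 tumors of a mouse share their host.

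Levels are FPKM, fragments scaled by the authors to transcript length and library size, and can be compared between genes. Changes are differences of log2(FPKM + 0.5), which understate the change of genes near or below 0.5 FPKM. Read depth per value is unknown, and intervals for counting error could not be computed. The total FPKM per tumor ran from 970443 to 1281010 in control and from 1223330 to 1406990 in J+V. Of 8 melanoma markers, 5 were at 1 FPKM or more in every tumor (SOX10, MITF, MLANA, S100B and AXL), DCT was listed at 0 in every tumor, and PMEL and TYR did not exceed 0.216 and 0.305 FPKM. All 6 fibroblast markers were also present, with sums of 36.2 to 121.4 FPKM in control and 62.4 to 114.9 in J+V tumors. By the test described below, LUM, DCN and PDGFRB were called higher in J+V against control, and COL1A1, COL1A2 and COL3A1 were not called. Of the melanoma markers, S100B (log2 change 1.68) and MLANA (0.55) were called higher and AXL (−1.39) lower, while SOX10 and MITF were not called. Myeloid markers summed to 19.96 to 30.6 FPKM over all tumors, while the endothelial, lymphoid and keratinocyte lists reached at most 1.75, 0.716 and 0.861 FPKM. Most of the myeloid sum was CD68, at 16.6 to 27.0 FPKM. AIF1 measured 1.05 to 2.86 and LYZ 0.254 to 3.82 FPKM, and PTPRC and CSF1R did not exceed 0.456 and 0.636 FPKM. Fewer cells of a type and less RNA per cell cannot be told apart in such bulk samples, and the part of host or stromal RNA in the results below was not tested.

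The coding bases of the BH3 segment are shown because this stretch defines the family. Each was read 5′ to 3′ on the coding strand of the principal transcript of GENCODE v44 on GRCh37, the assembly behind hg19. Capitals mark the 6 codons of the motif searched for, a leucine, any 3 residues, a glycine, alanine or serine, and an aspartate, with 5 codons before and 4 after.
BCL2L11: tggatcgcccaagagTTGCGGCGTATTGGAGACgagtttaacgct
BID: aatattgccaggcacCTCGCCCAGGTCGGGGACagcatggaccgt
BBC3: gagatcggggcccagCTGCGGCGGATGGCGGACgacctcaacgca
PMAIP1: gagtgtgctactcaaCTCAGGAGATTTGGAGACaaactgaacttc
BMF: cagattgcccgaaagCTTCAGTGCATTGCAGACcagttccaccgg
BAD: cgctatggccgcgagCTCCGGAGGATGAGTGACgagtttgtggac
BIK: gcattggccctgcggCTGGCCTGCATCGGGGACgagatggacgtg
HRK: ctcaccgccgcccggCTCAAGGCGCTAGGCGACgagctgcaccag
Each stretch lies within a single coding exon. The BCL2L11 stretch is at chr2:111907665-111907709 (plus strand, exon 3 of 4), that of BMF at chr15:40396396-40396440 (minus strand, exon 4 of 5), that of BBC3 at chr19:47729836-47729880 (minus strand, exon 3 of 4) and that of PMAIP1 at chr18:57569890-57569934 (plus strand, exon 2 of 2). The BID stretch is at chr22:18222181-18222225 (minus strand, exon 4 of 6), that of BAD at chr11:64039094-64039138 (minus strand, exon 3 of 4), that of BIK at chr22:43523707-43523751 (plus strand, exon 3 of 5) and that of HRK at chr12:117318975-117319019 (minus strand, exon 1 of 2). The motif occurred once in each coding sequence apart from BID, which held it 2 times. The copy shown for BID starts at residue 90 and is the known BH3 helix. The encoded proteins range from 54 residues in PMAIP1 to 198 in BCL2L11. BCL2L11, BBC3, PMAIP1 and BAD share 2 arginine codons right after the leucine codon, which the other 4 stretches lack.

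The members lay at very different levels. In control tumors PMAIP1 (NOXA) averaged 141.9 ± 35.6 FPKM (SD, n = 4), above 97.2% of all symbols, and every tumor had more PMAIP1 than any other member. BAD and BID followed at 10.8 ± 2.08 and 10.7 ± 1.65 FPKM and overlapped, and BCL2L11 stood below both at 6.19 ± 0.554 FPKM. BBC3 (PUMA) at 1.05 ± 0.247 FPKM overlapped with BIK, and BMF at 0.213 ± 0.0429 FPKM overlapped with HRK, the lowest member. In J+V tumors BAD overlapped with BID and BID with BCL2L11, while every BCL2L11 value lay above every BBC3 value. Below that, BBC3 overlapped with BMF, BMF with HRK and HRK with BIK. PMAIP1 made up 76.4 to 86.7% of the summed FPKM of the 8 members in control tumors and 67.3 to 78.9% in J+V tumors.

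**Figure D1:**
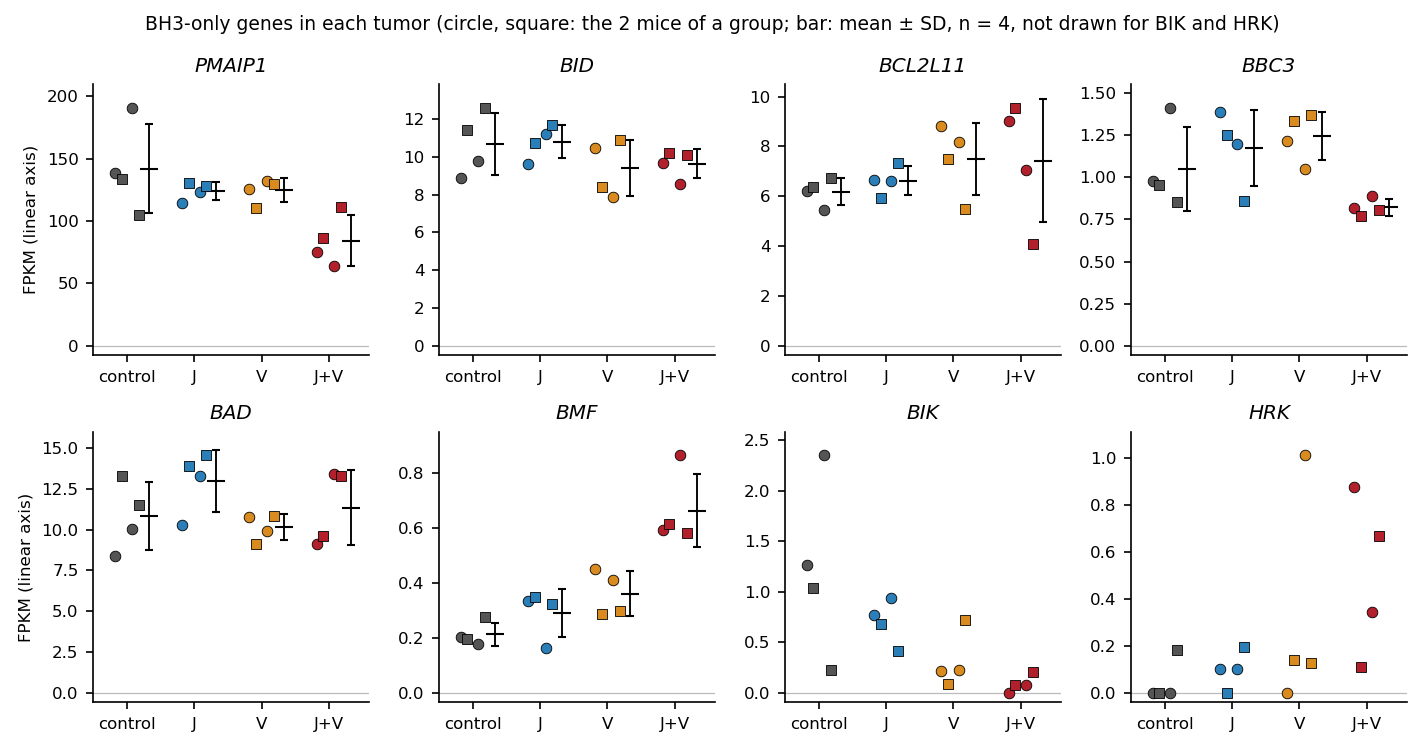
Each tumor's FPKM for the 8 BH3-only genes by group, on linear axes. The marker (circle or square) tells apart the 2 mice in a group, and bars give mean ± SD over 4 tumors, left out for BIK and HRK. PMAIP1 and BIK have their lowest group mean in J+V tumors, where PMAIP1 overlaps with control and V, and BIK with V. BMF in every J+V tumor is above all other tumors, while BID and BAD overlap between all groups.

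The comparisons ask whether either drug, or both together, moved the RNA of these genes. For the test, 0.5 was added to each FPKM, and limma was fitted to the 13426 genes with at least 1 FPKM in at least 4 tumors, with adjusted p values by Benjamini-Hochberg over all of them. BCL2L11, BBC3, PMAIP1, BID and BAD passed this filter. BBC3 reached 1 FPKM in 8 of the 16 tumors, none of them J+V, so it passed only through the groups where it was higher. BMF, BIK and HRK did not, since they reached 1 FPKM in 0, 3 and 1 of the 16 tumors, and they are described apart. Of the 5 tested members, 1 changed in J+V against control (PMAIP1, lower), where 37.1% of all tested genes were called and 20.5% were called lower. In J+V against J 1 changed (PMAIP1, lower), beside 27% of all genes and 18.4% in the lower direction. In J+V against V 2 changed (PMAIP1 and BBC3, lower), beside 13.3% of all genes and 8.31% in the lower direction. With 5 members tested, a count of 1 is below the number that the share of all called genes would give in the first 2 comparisons. None of the 5 was called in J or V against control, where limma called 0% of all genes. There 1140 and 2160 genes had an unadjusted p under 0.05, none of them among these 5 members. In the limma fit without the filter described below, BIK and BMF in V against control had unadjusted p of 0.0089 and 0.0141, and neither was called. In J against V, where 0.283% of all genes were called, no member was called either. The comparisons of J+V share tumors with each other and are not independent.

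Among the members that can activate BAX and BAK1 directly, BCL2L11 showed the widest spread in J+V tumors. It measured 6.20, 5.43, 6.37 and 6.75 FPKM in control tumors 2L, 2R, 5L and 5R, and 6.63, 6.60, 5.93 and 7.35 FPKM in J tumors. In V tumors it measured 8.80, 8.18, 7.48 and 5.49 FPKM, and in J+V tumors 33L, 33R, 34L and 34R 9.01, 7.07, 9.53 and 4.10 FPKM. So 3 J+V tumors and 3 V tumors lay above every control tumor, while J+V tumor 34R had the lowest value of all. The mean was 6.19 ± 0.554 FPKM in control and 7.43 ± 2.46 in J+V tumors (SD, n = 4 each), a log2 change of 0.19 with a 95% interval of −0.22 to 0.59 (limma adjusted p = 0.465), which is not past the threshold. Without tumor 34R the log2 change was 0.42 and passed it (limma adjusted p = 0.0336). As 34R was the lowest tumor, taking it out was bound to raise the change. Among 37 alternatives this was the only 1 in which BCL2L11 was called, and the log2 change ran from −0.02 to 0.42. In V against control the log2 change was 0.24 (interval −0.17 to 0.65, adjusted p = 0.572) and in J against control 0.09 (interval −0.32 to 0.50, adjusted p = 0.954). In the annotation, 727 exon bases of BCL2L11 are shared with MIR4435-2HG on the opposite strand. MIR4435-2HG is not among the deposited symbols, and whether strand was used in counting is not stated.

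BID, which caspase-8 cleaves to its active form, differed little between groups. Its values ranged from 8.89 to 12.6 FPKM in control, 9.63 to 11.7 in J, 7.89 to 10.9 in V and 8.55 to 10.2 in J+V tumors. The groups overlapped throughout, and the log2 change in J+V against control was −0.13 (interval −0.38 to 0.12, limma adjusted p = 0.395). The interval leaves room for a change of up to 0.38 on the log2 scale downward. CASP8 itself, at 27.3 ± 5.19 FPKM in control and 28.9 ± 2.18 in J+V tumors, was not past the threshold (adjusted p = 0.505).

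BBC3 encodes PUMA, which binds every guardian. It measured 0.979, 1.41, 0.957 and 0.852 FPKM in control, 1.39, 1.202, 1.25 and 0.858 in J, and 1.22, 1.05, 1.34 and 1.37 in V tumors. The 4 J+V tumors were tightly grouped at 0.815, 0.892, 0.771 and 0.809 FPKM. Every J+V tumor lay below every V tumor, and 3 of 4 lay below all control and below all J tumors. The share of all genes that separate J+V from V in this way was not computed. The log2 change was −0.40 (SE 0.125, limma adjusted p = 0.0487) in J+V against V, −0.33 (adjusted p = 0.0612) against J and −0.22 (interval −0.49 to 0.05, adjusted p = 0.184) against control. Set against the J and V changes added together, J+V departed by −0.51 with an unadjusted p of 0.0113 and an adjusted p of 0.253, and limma called 0% of all genes in that comparison, with 1693 genes at an unadjusted p under 0.05. The call against V was close to the threshold and was lost in 28 of 36 alternatives, including every removal of a single J+V tumor and the removal of either V mouse, with adjusted p of up to 0.296. The limma fit without the filter was among these (adjusted p = 0.0575). In the annotation, 80 exon bases of BBC3 are shared with MIR3191 on the opposite strand, and no source used here states whether strand was used in counting.

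Among the sensitizers, which act by occupying guardians, PMAIP1 fell. NOXA, its product, binds MCL1 and BCL2A1. PMAIP1 measured 138.7, 190.5, 133.5 and 104.9 FPKM in control tumors 2L, 2R, 5L and 5R. It measured 114.8, 123.3, 130.8 and 128.2 FPKM in J tumors and 126.0, 132.3, 110.6 and 130.0 in V tumors. In J+V tumors 33L, 33R, 34L and 34R it measured 75.4, 64.3, 86.3 and 111.4 FPKM. All 4 J+V tumors lay below every J tumor, and 3 of 4 lay below every control and every V tumor, with 34R as the exception. The share of all genes that separate J+V from J in this way was not computed. The mean was 84.3 ± 20.1 FPKM in J+V against 141.9 ± 35.6 in control (SD, n = 4 each), 40.6% lower, and the means of J and V were 124.3 ± 7.01 and 124.7 ± 9.77. The log2 change was −0.74 (SE 0.163, limma adjusted p = 0.00284) against control, −0.58 (adjusted p = 0.0166) against J and −0.59 (adjusted p = 0.0284) against V. The departure from the added J and V changes, −0.43 (interval −0.92 to 0.06, adjusted p = 0.473), was not past the threshold. By mouse, the mean was 69.8 FPKM in mouse 33 and 98.8 in mouse 34, against 164.6 and 119.2 in control mice 2 and 5. The tumors of the J+V mice also differed over many other genes. Among the genes whose mean in the other 3 J+V tumors differed at least 2-fold from control, the median share of that log2 difference was 1.06 in 33L and 1.22 in 33R, against 0.660 in 34L and 0.802 in 34R, and the part of this difference in the PMAIP1 values was not tested. Without mouse 33 none of the 3 calls remained, with log2 changes of −0.50 against control (adjusted p = 0.0658) and −0.34 against J (adjusted p = 0.241) and V (adjusted p = 0.333). The call against J was also lost without J+V tumor 33L or 33R, without mouse 26 or 29 and from the means of mice (adjusted p of 0.0529 to 0.133). The call against V was lost in 12 of 37 alternatives, namely without V tumor 16L, 16R or 19R, without J+V tumor 33L or 33R, without mouse 16, 19, 26, 29 or 33, from the means of mice and when only the compared groups were fitted.

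BAD, which phosphorylation keeps bound to the YWHA scaffold proteins and away from BCL2 and BCL-XL, was not called in any comparison. It measured 8.39 to 13.3 FPKM in control, 10.3 to 14.5 in J, 9.15 to 10.8 in V and 9.12 to 13.4 in J+V tumors. J tumors were highest, with 3 of 4 above every V tumor. The log2 change was 0.07 in J+V against control (interval −0.25 to 0.38, limma adjusted p = 0.753) and 0.26 in J against control (interval −0.05 to 0.58, adjusted p = 0.679). In J against V it was 0.33, with an unadjusted p of 0.0418 and an adjusted p of 0.395. BAD shares 404 exon bases with GPR137 on the opposite strand.

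BMF was scarce in every tumor and was highest in all 4 J+V tumors. BMF is held at dynein light chains until released, and binds BCL2 and its relatives. It measured 0.203, 0.177, 0.195 and 0.275 FPKM in control and 0.333, 0.162, 0.348 and 0.323 in J tumors. It measured 0.451, 0.409, 0.286 and 0.298 FPKM in V and 0.594, 0.863, 0.613 and 0.582 in J+V tumors. Every J+V tumor lay above each of the other 12 tumors, a pattern that 2.82% of the 20518 symbols above 0 in any tumor shared. Every V tumor also lay above every control tumor, by a narrow margin, and the share of all symbols that do so was not computed. The mean in J+V was 0.663 ± 0.134 FPKM against 0.213 ± 0.0429 in control, 0.292 ± 0.0868 in J and 0.361 ± 0.0817 in V (SD, n = 4 each), a ratio of mean FPKM of 3.12 to control. Fitted without the filter, BMF was higher in J+V by a log2 change of 0.70 against control (SE 0.0963, limma adjusted p = 0.000283), 0.55 against J (adjusted p = 0.00231) and 0.43 against V (adjusted p = 0.0174). In that fit 24.5%, 16.5% and 7.52% of all symbols were called in the same 3 comparisons. In V against control the log2 change was 0.27 (interval 0.06 to 0.48, adjusted p = 0.262).

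The size of these changes depends on the constant added. Against control it was 1.28 with 0.1 added and 0.45 with 1 added. The calls of BMF against control and J held in each of 32 alternatives to this fit. The call against V was lost without V tumor 19R, without J+V tumor 33R, without mouse 19 or 33 and from the means of mice, with adjusted p of up to 0.182. The exact two-sided permutation test gave 0.0286 for each of J+V against control, J and V and for V against control, the smallest p that 4 against 4 tumors allow, and 0.0857 when adjusted over the 18 comparisons of the 3 scarce members. BMF stayed below 1 FPKM in all tumors. It shares 461 exon bases with BMF-AS1 on the opposite strand, which is not among the deposited symbols, and the use of strand in counting is not stated. The sums of the fibroblast markers overlapped between control and J+V tumors. Of the 6 markers, LUM (log2 change 1.61), DCN (1.67) and PDGFRB (0.72) were called higher in J+V against control. COL1A1 (−0.16), COL1A2 (0.16) and COL3A1 (0.50) were not called. The part of fibroblast RNA in the BMF values was not tested.

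BIK and HRK were scarce in most tumors, and each was listed at 0 in at least 1. BIK, which sits at the endoplasmic reticulum, measured 1.27, 2.35, 1.04 and 0.223 FPKM in control and 0.771, 0.937, 0.682 and 0.416 in J tumors. It measured 0.220, 0.227, 0.0846 and 0.722 FPKM in V tumors, and 0.0793, 0.0782 and 0.212 in J+V tumors 33R, 34L and 34R, while 33L was listed at 0. Every J+V tumor lay below every control and every J tumor, and control and J+V did not overlap for 21.7% of the 20518 symbols. That share was not computed for J+V against J. Without the filter the log2 change was −1.39 (SE 0.321, limma adjusted p = 0.00663) against control, −1.01 (adjusted p = 0.0455) against J and −0.41 (adjusted p = 0.480) against V. The call against control was lost without mouse 2 (adjusted p = 0.0805), without mouse 33 (adjusted p = 0.0795) and from the means of mice (adjusted p = 0.0534), and that against J in 22 of 32 alternatives. With 0.1 or 1 added in place of 0.5, the change against control was −2.57 or −0.94. In V against control the change was −0.98 (adjusted p = 0.234), and it passed the threshold once control tumor 5R (adjusted p = 0.0308) or the whole of mouse 5 (adjusted p = 0.0313) was removed. By the exact two-sided permutation test, p was 0.0286 against control and against J and 0.0571 against V, or 0.0857, 0.0857 and 0.114 when adjusted over the 18 comparisons of the 3 scarce members.

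HRK, which binds BCL-XL, was listed at 0 in control tumors 2L, 2R and 5L and measured 0.182 FPKM in 5R. It measured 0.102, 0.103 and 0.194 FPKM in J tumors 26L, 26R and 29R and was listed at 0 in 29L. In V tumors it was listed at 0 in 16L and measured 1.01, 0.142 and 0.127 FPKM in 16R, 19L and 19R. In J+V tumors it measured 0.875, 0.346, 0.112 and 0.668 FPKM. So 3 J+V tumors lay above every control and every J tumor, while V tumor 16R exceeded all of them. Without the filter the log2 change was 0.82 in J+V against control (SE 0.290, limma adjusted p = 0.0535), or 1.99 with 0.1 added and 0.50 with 1 added, not past the threshold with 0.5 added, and the exact permutation p was 0.0571 (0.114 when adjusted over the 18 comparisons). It passed the threshold in 8 of 32 alternatives, among them the fits that left out V tumor 16R (adjusted p = 0.0107), J+V tumor 34L (adjusted p = 0.0206), control tumor 5R (adjusted p = 0.0455) or V tumor 16L (adjusted p = 0.0464). In J+V against J the change was 0.68 (adjusted p = 0.131), and it passed without V tumor 16R (adjusted p = 0.0376) or mouse 16 (adjusted p = 0.0404).

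**Figure D2:**
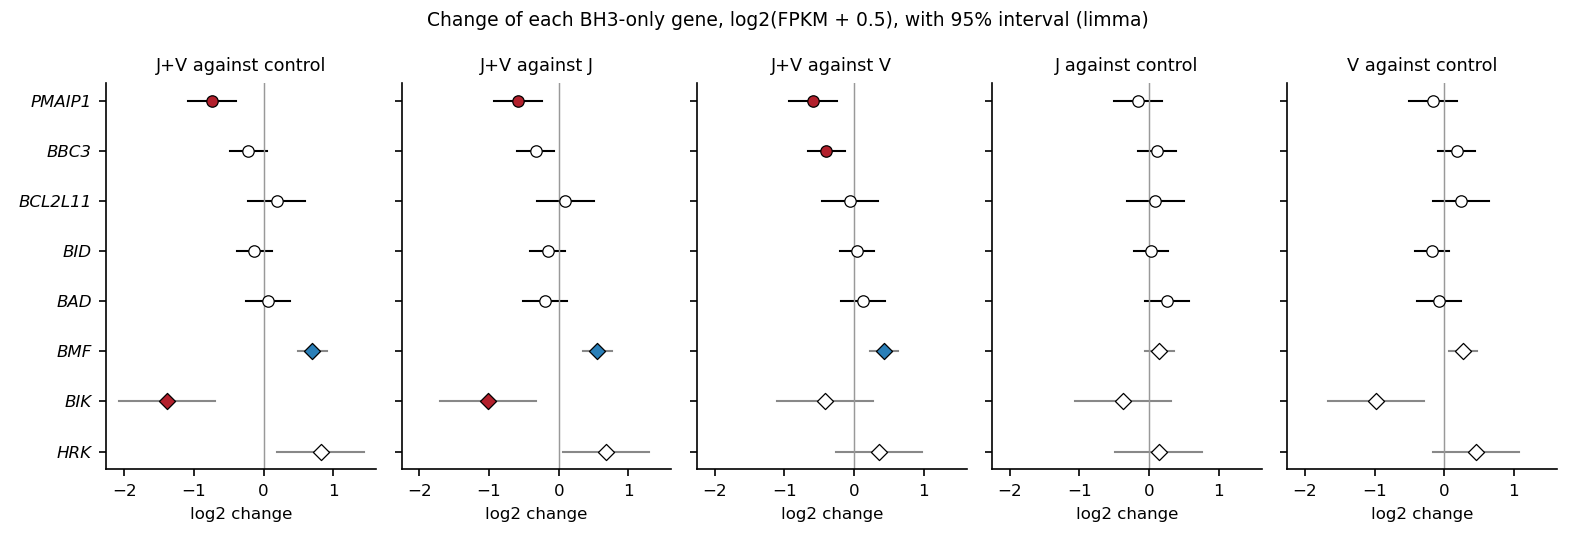
Log2 change of each BH3-only gene on the scale of log2(FPKM + 0.5) in 5 comparisons, with the 95% interval from limma. Circles are members tested with the filter, diamonds are members fitted without it, and filled symbols have an adjusted p under 0.05 (red lower, blue higher). PMAIP1 is filled in all 3 comparisons of J+V, BMF is filled in the opposite direction, and no symbol is filled for J or V against control.

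Across the 16 tumors, the members did not all vary together. PMAIP1 rose and fell with BIK (Pearson r = 0.80, Spearman rho = 0.84) and against BMF (r = −0.81, rho = −0.61). After each group's mean was removed, r was 0.70 for PMAIP1 with BIK and −0.40 for PMAIP1 with BMF. BID and BAD had r = 0.53 (0.48 within groups), and BCL2L11 had r = −0.43 with PMAIP1 (−0.51 within groups). These are descriptions over tumors that share mice and groups. Of all genes kept, those with patterns most like PMAIP1 over the 16 tumors were DEPDC1B, MLF1IP and NUSAP1 (r = 0.94, 0.94 and 0.94). The nearest to BID were BLVRA, ROMO1 and TSPO (r = 0.91, 0.88 and 0.88), and the nearest to BAD were CEP41, PVRL1 and ACTR1B (r = 0.86, 0.79 and 0.79). For BBC3 they were DOCK9, TRIM37 and DSTNP2 (r = 0.80, 0.79 and 0.77), and for BCL2L11 HNRNPA1L2, MEF2C and HOXD-AS2 (r = 0.76, 0.73 and 0.72).

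The guardians, which the BH3-only proteins occupy, were mostly lower under both drugs. Of 5 tested in J+V against control, 4 fell and none rose, beside 20.5% of all genes called lower, with a median log2 change of −0.51 beside −0.03 over all genes. BCL2 fell from 1.41 ± 0.380 to 0.761 ± 0.0950 FPKM (SD, n = 4 each; log2 change −0.58, limma adjusted p = 0.00409) and BCL2A1 from 11.9 ± 2.87 to 6.69 ± 1.37 (−0.78, adjusted p = 0.0487). BCL2 did not exceed 0.888 FPKM in J+V tumors, so it passed the filter only through groups where it was higher. MCL1 changed by −0.51 (adjusted p = 0.0111) and BCL2L1, which encodes BCL-XL, by −0.50 (adjusted p = 0.0199), while BCL2L2 stayed at 6.38 ± 0.871 and 6.33 ± 0.655 FPKM (adjusted p = 0.952). BCL2L10 was listed at 0 in 15 of 16 tumors. Over the alternatives, 1 to 4 guardians fell and none rose. The call of BCL2A1 was lost in 26 of 37 alternatives (adjusted p of up to 0.297), while those of MCL1 and BCL2L1 were each lost in 4, without mouse 5 (adjusted p = 0.119 and 0.115) and without mouse 33 (adjusted p = 0.187 and 0.176) in both cases. Of the effectors, BAX fell from 9.42 ± 1.155 to 6.39 ± 1.67 FPKM (−0.55, adjusted p = 0.0155, lost without mouse 2 or 33 and without control tumor 2R or J+V tumor 33L), BAK1 measured 1.96 ± 0.796 and 1.59 ± 0.296 FPKM (adjusted p = 0.397), and BOK averaged 0.744 ± 0.355 and 0.558 ± 0.0901 FPKM, below the filter.

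To compare each gene with its partner inside the same tumor, 5 BH3-only genes were set against a guardian that their product binds, as log2 ratios of FPKM + 0.5. The added 0.5 keeps these ratios finite but makes those of the scarce genes BMF and HRK depend on it. The log2 ratio of BMF to BCL2 was −1.36, −1.86, −1.24 and −1.14 in control tumors and −0.34, 0.19, −0.20 and −0.13 in J+V tumors. Its J+V and control tumors did not overlap, and the difference was 1.28 (2.07 with 0.1 added and 0.89 with 1 added). The log2 ratio of HRK to BCL2L1 was −4.13, −4.60, −4.46 and −4.15 in control and −2.12, −3.27, −3.81 and −2.84 in J+V tumors, without overlap and with a difference of 1.32 (2.52 with 0.1 added and 0.97 with 1 added). For BAD to BCL2L1 the ratios were 0.02, −0.20, 0.32 and −0.01 in control and 0.68, 0.77, 0.23 and 0.72 in J+V tumors, and J+V tumor 34L fell within the control range. The difference for BAD to BCL2L1 was 0.57. The log2 ratio of BCL2L11 to MCL1 was −5.02, −5.21, −5.45 and −5.17 in control and −4.01, −4.31, −4.12 and −5.62 in J+V tumors. There 3 J+V tumors lay above every control tumor and 34R below every one, and the difference was 0.70. The log2 ratio of PMAIP1 to MCL1 differed by −0.23, with J+V tumors (−1.21 to −1.005) inside the control range (−1.30 to −0.20).

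By exact two-sided permutation tests of 4 against 4 tumors, p was 0.0286 for BMF to BCL2 and for HRK to BCL2L1, the smallest possible, 0.0571 for BAD to BCL2L1, 0.143 for BCL2L11 to MCL1 and 0.429 for PMAIP1 to MCL1. Adjusted over the 5 pairs, the p values were 0.0714, 0.0714, 0.0952, 0.179 and 0.429, so no ratio passed the threshold. These tests, too, took the tumors of a mouse as exchangeable. Without J+V tumor 34R the ratio of BCL2L11 to MCL1 differed by 1.06, and without J+V tumor 34L that of BAD to BCL2L1 by 0.69. As 34R and 34L were the J+V tumors out of line for these pairs, taking them out was bound to separate the groups. The ratios of BMF to BCL2 and HRK to BCL2L1 also passed the threshold in both of these removals, and each of these 6 permutation p values adjusted to 0.0476. They passed because a further pair had reached the smallest possible p, which eases the adjustment, and not because their own separation grew.

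**Figure D3:**
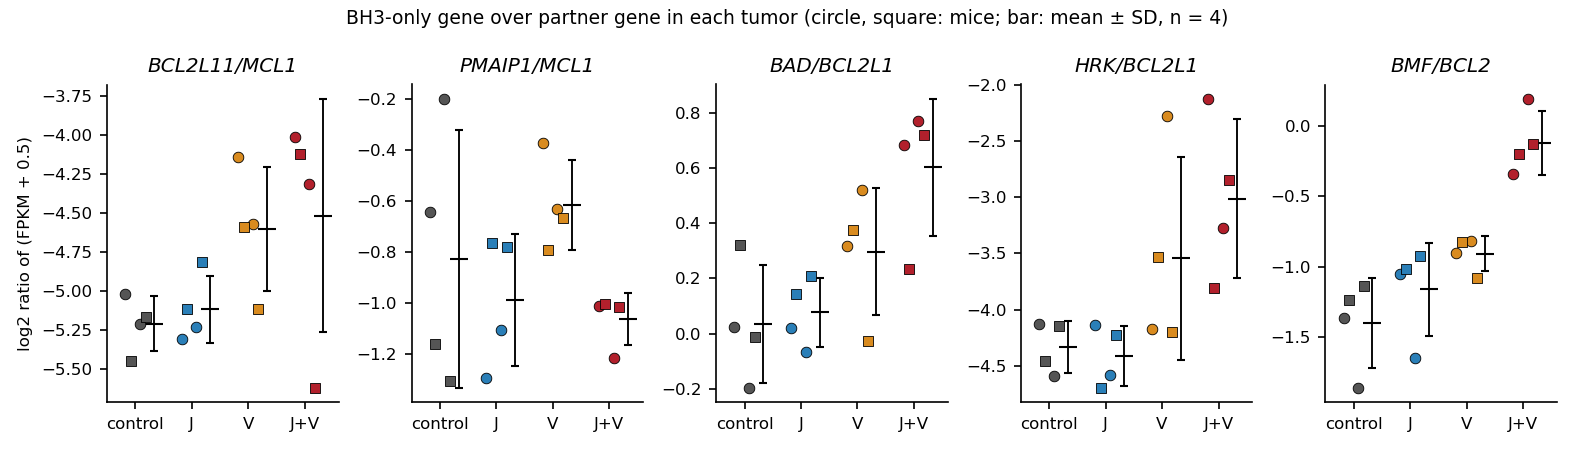
Log2 ratio of (FPKM + 0.5) of a BH3-only gene to that of a guardian gene by tumor and group, where the marker (circle or square) tells apart the 2 mice and bars give mean ± SD over 4 tumors. The J+V tumors lie above all control tumors for BMF to BCL2 and HRK to BCL2L1, and 34R stands apart from the other J+V tumors for BCL2L11 to MCL1.

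The transcription factors known to act on BH3-only genes moved in both directions in J+V against control. Of 12 tested, 2 rose and 4 fell (median log2 change −0.10, beside −0.03 over all genes), where 37.1% of all genes were called and 20.5% were called lower. FOXO1 rose from 2.09 ± 0.502 to 4.86 ± 1.16 FPKM (SD, n = 4 each; log2 change 1.04, limma adjusted p = 0.00061) and FOXO3 from 2.56 ± 0.493 to 3.46 ± 0.467 (0.38, adjusted p = 0.0181). E2F1 fell by 1.27 on the log2 scale (adjusted p = 0.00019) and RUNX3 by 0.77 (adjusted p = 0.000751). Of 10 tested FOXO target genes other than the members, 5 rose and 2 fell (median 0.23), beside 37.1% of all genes called in either direction. Those that rose include TXNIP (0.93, limma adjusted p = 0.00146), SESN3 (0.92, adjusted p = 0.00283) and BCL6 (0.59, adjusted p = 0.00856). The 2 that fell were PINK1 (−0.49, limma adjusted p = 0.0236) and CDKN1B (−0.25, adjusted p = 0.0192). Over the alternatives 2 to 5 FOXO targets rose and 0 to 4 fell. With a common sum per tumor (TPM), which lowers J+V values relative to control, the counts became 1 higher and 5 lower for the transcription factors and 2 and 4 for the FOXO targets. With that sum FOXO3 (0.19, adjusted p = 0.164) and BCL6 (0.39, adjusted p = 0.0565) were not past the threshold. The call of FOXO3 was lost in 7 of 36 alternatives, among them the removal of J+V tumor 33R or 34L or control tumor 5L. The calls of FOXO3 and BCL6 were lost without mouse 2 (adjusted p = 0.0854 and 0.0559) and, as was that of SESN3, without mouse 33 (adjusted p = 0.103, 0.0734 and 0.0663).

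ATF4 and CHOP carry the stress response that is known to raise PMAIP1, BBC3 and BCL2L11. Of 8 tested target genes of theirs, 4 fell and none rose (median −0.41), beside 20.5% of all genes called lower. Those that fell include PSAT1 at −0.76 (limma adjusted p = 0.000858), DDIT4 at −0.69 (adjusted p = 0.00256) and CHAC2 at −0.42 (adjusted p = 0.0210, lost without mouse 2, 33 or 34 among 7 alternatives). Of 20 ERK output genes, 2 rose and 6 fell (median −0.15), beside 37.1% of all genes called. Over the alternatives 0 to 5 of them rose and 3 to 8 fell, with 0 and 8 by the TPM scaling, 4 and 4 without control tumor 5R, and 5 and 4 without mouse 5. FOSL1 changed by −1.82 (adjusted p = 0.000299), EPHA2 by −1.67 (adjusted p = 0.000974) and CCND1 by −0.83 (adjusted p = 0.000313), while DUSP6, the ERK phosphatase, measured 124.3 ± 18.1 FPKM in control and 112.8 ± 22.4 in J+V tumors (adjusted p = 0.358).

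Of 20 tested genes whose products hold or modify BH3-only proteins, 9 fell and none rose in J+V against control, beside 20.5% of all genes called lower. The median was −0.26 beside −0.03 over all genes, and 7 to 12 fell and 0 to 3 rose over the alternatives. PIM1 and PIM3, kinases that phosphorylate BAD, changed by −1.37 (limma adjusted p = 0.000809) and −0.80 (adjusted p = 0.00198), and YWHAH, a scaffold that holds BAD, by −0.83 (adjusted p = 0.000161). The dynein light chain genes DYNLL1 and DYNLL2, whose products hold BIM and BMF, were not past the threshold (−0.09 and −0.06, adjusted p = 0.504 and 0.706). Of 4 other genes with a BH3-like motif, BNIP3 was lower (−0.68, adjusted p = 0.0310) and the other 3 were not called. The call of BNIP3 was lost in 12 of 37 alternatives, with an adjusted p of 0.428 without mouse 2. In J and in V against control, limma called no gene of any of these lists, as it called none over all genes.

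**Figure D4:**
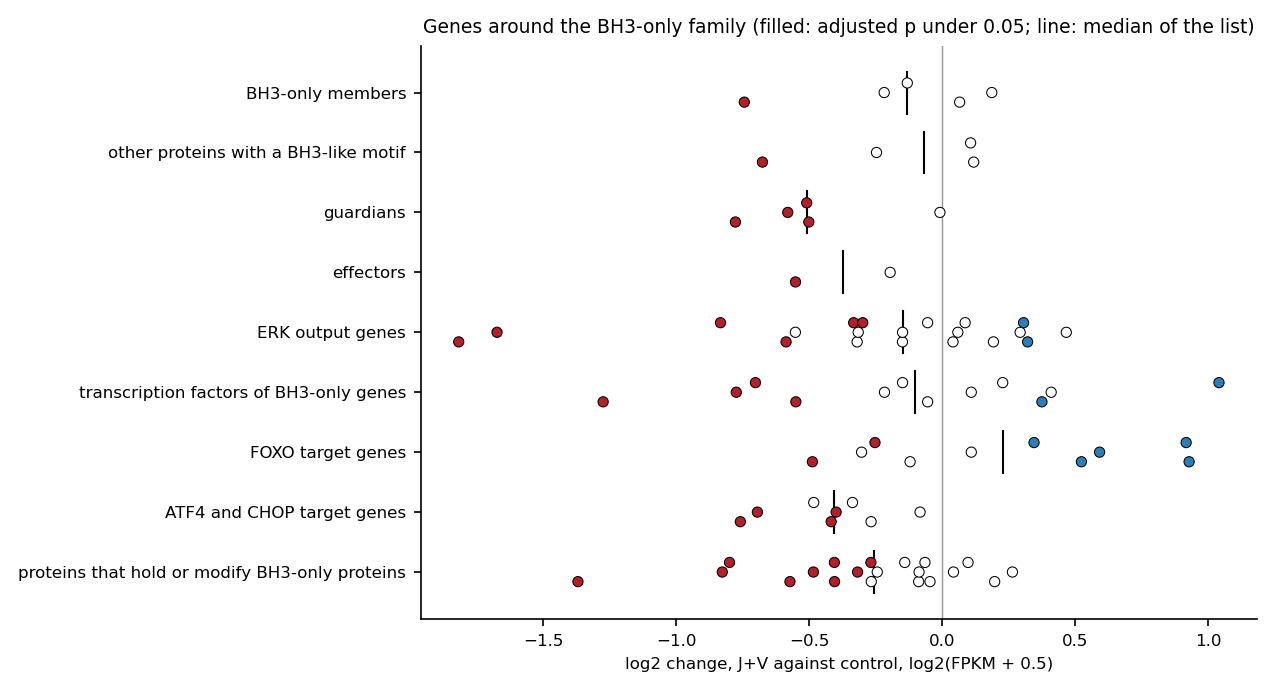
Log2 change in J+V against control of every tested gene of the lists described, on the scale of log2(FPKM + 0.5), with filled circles for an adjusted p under 0.05 (red lower, blue higher) and a line at the median of each list. Guardians, the ATF4 and CHOP targets and the holders or modifiers have filled circles on the lower side only, and FOXO targets have 5 on the higher side and 2 on the lower side.

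Promoters of RefSeq on GRCh38.p14, from 250 bases before to 50 after the first listed start, were searched on both strands for the letters GTAAACA (FOXO), CCGGAAGT (ETS), TGANTCA (AP-1), CACGTG (E-box), and TTTGGCGC or TTTCCCGC (E2F). A promoter was listed for 7 of the 8 members, BIK being the other. Only BCL2L11 held GTAAACA, and only BBC3 held TGANTCA and CACGTG, while PMAIP1, BMF, BID, BAD and HRK held none of the letters searched. The matches are shown with 11 bases on either side and the motif in capitals.
BCL2L11, GTAAACA at chr2:111120680-111120708: gagttactccgGTAAACAcgccagggacg
BBC3, TGANTCA at chr19:47232763-47232791: gcactggaaggTGAGTCActctggtgagg
BBC3, CACGTG at chr19:47232883-47232910: tggggagatttCACGTGagatatagatt
Among all 27305 promoters, 3.41% held the FOXO letters, 7.76% the AP-1 letters, 7.43% the E-box letters, 4.44% the ETS letters and 2.31% an E2F match. A match describes the letters of this window and not a bound site.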

How the data were processed

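RNA from 16 xenograft tumors was depleted of ribosomal RNA with RiboZero and made into libraries with ScriptSeq v2. The authors deposited FPKM per gene symbol, made after mapping to hg19 with bcl2fastq, TopHat and Cufflinks named in the submitters' processing notes. No source used here gives tool versions, the annotation or a removal of mouse reads. Tumor titles were read as mouse number and flank. Doses, day and mice per group come from the study's methods.

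From the deposited FPKM, log2(FPKM + 0.5) was computed. Genes with at least 1 FPKM in at least 4 of 16 tumors (13426) entered a limma model (version 3.58.1, R 4.3.3) with a mean-variance trend, 4 group terms and the mouse as a block (correlation −0.0674, held fixed when tumors were left out), 12 residual degrees of freedom and Benjamini-Hochberg adjustment over all genes (threshold 0.05). The correlation was negative, so the block did not widen the errors for tumors that share a mouse. Without the block, the limma adjusted p was 0.0632 for BBC3 in J+V against V and 0.0571 for BCL2A1 in J+V against control. The script was tested on simulated data. BMF, BIK and HRK, below the filter, were given exact permutation tests and a fit of all 20518 symbols above 0 in any tumor. The permutation test of BMF was chosen after its values were seen. All tests were two-sided, and p values over tumors measure the spread between tumors of few mice.

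Genes named are the 8 members, per list the 3 called genes with the largest change in J+V against control, a fixed set of partners and regulators, and the 3 genes most correlated with each member. The FOXO targets that fell were named besides. 1 regulator and its list of target genes are not reported here. The members and lists were chosen with earlier results of these data known. Alternatives were other pseudocounts (0.1 and 1), filters (none, or a mean of at least 5 FPKM), scalings, blocks and moderation, and leaving out each tumor and mouse. Running these on the listed genes beside the members was chosen after seeing the data. No protein table was used, so the BH3 motif was found in translated coding sequences of GENCODE v44 (GRCh37). Plots were made with matplotlib 3.10.9.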

Additional observations from a re-analysis of the deposited data

Results flagged for a closer look

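In groups of 4 tumors a value was picked out when its gap to the nearest other value, as a share of the range, passed the 95% critical value of Dixon. Chance picks out about 1 in 20 groups, and 32 groups of the 8 members were examined. BMF in J tumor 26R was 0.162 FPKM, below the next lowest J value of 0.323. BMF in J+V tumor 33R was 0.863 FPKM, above the next highest J+V value of 0.613. HRK in control tumor 5R was 0.182 FPKM, while the other 3 control tumors were listed at 0, and HRK in V tumor 16R was 1.01 FPKM, above the next highest V value of 0.142.

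BBC3 lay above the control mean in V (log2 change 0.18) and below it in J+V (log2 change −0.22), a difference of 0.40 on the log2 scale. The opposite signs themselves were not tested. The direct comparison of J+V with V by limma had an adjusted p of 0.0487. That call was lost in 28 of 36 alternatives, among them the means of mice (limma adjusted p = 0.171). BBC3 passed the filter only through the groups where it was higher.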

How the results depend on the processing

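Of the 5 members that passed the filter, the number called in J+V against control, 1, was 2 with a common sum per tumor (TPM) and 0 to 2 when a tumor or mouse was left out. In J+V against J it was 1, then 0 from the means of mice and 0 to 2 when a tumor or mouse was left out. In J+V against V it was 2, then 1 with a pseudocount of 0.1, without the filter, with a filter at a mean of 5 FPKM, without small RNAs in the common sum, with quantile normalization or upper quartile scaling, without the mouse block, with the flank as a term or robust moderation. It was 0 from the means of mice or when only the compared groups were fitted, and 0 to 2 when a tumor or mouse was left out. The counts in J and V against control, in J against V and for J+V against the added single changes stayed at 0. These counts leave out BMF, BIK and HRK, of which BMF and BIK were called without the filter in J+V against control and against J, and BMF against V. Leaving out a tumor, the difference in log2 ratio ranged from 1.13 to 1.37 for BMF to BCL2, 1.03 to 1.59 for HRK to BCL2L1, 0.49 to 0.69 for BAD to BCL2L1, 0.53 to 1.06 for BCL2L11 to MCL1 and −0.39 to −0.03 for PMAIP1 to MCL1. A pseudocount of 0.1 or 1 moved it to 2.07 or 0.89 for BMF to BCL2 and to 2.52 or 0.97 for HRK to BCL2L1. The cause of these changes was not tested.

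The TPM scaling moved the median of all genes in J+V against control from −0.03 to −0.22 and the share of calls that were lower from 55.4% to 85.3%, and with it BBC3 was lower in J+V against control (−0.36, limma adjusted p = 0.0494). PMAIP1 in J+V against V was lost in 12 of 37 alternatives and against J in 6, including the means of mice (limma adjusted p = 0.130 and 0.0863), and BBC3 in J+V against J was gained in 5 of 36. No direction was reversed in a called result. No paired analysis was possible because the groups share no mouse and the labels give a mouse number and flank for each tumor but no replicate number that links tumors of different groups.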
